A study of Mus musculus with 4 samples.

Results

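The 10 genes described here carry out antigen presentation on MHC class II molecules: H2-Aa, H2-Ab1, H2-Eb1, H2-Eb2, H2-DMa, H2-DMb1, H2-DMb2, H2-Oa, Cd74 and Ciita. They were listed by name, out of 21887 protein-coding genes of the mouse assembly GRCm38.p6, whose coordinates are those of mm10. Every ATAC-seq peak within a gene's span or 10 kb to either side of it was taken as a peak of that locus, and a peak shared by neighbouring loci was counted once. This gave 19 peaks in 11 separate regions, out of 20540 regions formed by merging overlapping peaks of all 4 lists. All peaks of the class II cluster on chromosome 17, from the outer end of H2-DMa to that of H2-Eb2, were also taken. ATAC-seq maps open chromatin through the insertions of the transposase Tn5.

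The cells were macrophages grown for 5 days in 10% M-CSF from the bone marrow of C57BL/6 mice. Their genotype was wild-type (WT) or Slc6a8-/y (KO), a hemizygous lack of the X-linked creatine transporter gene. They were left untreated or given 10 ng/mL of IL-4, a cytokine that drives alternative activation, for 6 h, and the study asked how accessibility changes in polarizing macrophages without creatine. The 4 groups, WT untreated, WT IL-4, KO untreated and KO IL-4, held 1 library of 50000 cells each. With 1 library per group no difference could be set against a replicate error, no p-value was computed, and each comparison is between libraries. The labels do not say how many mice gave the marrow.

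MHC class II molecules show peptides from endocytosed proteins to CD4+ T cells. In the mouse the classical pair is I-A, made from H2-Aa and H2-Ab1. H2-Eb1 encodes the beta chain of I-E, and C57BL/6 mice make no I-E because their H2-Ea gene is defective. The invariant chain, Cd74, occupies the groove of new class II molecules and steers them to endosomes. H2-DM, from H2-DMa with H2-DMb1 or H2-DMb2, exchanges its remnant for peptide, and H2-O, which contains the product of H2-Oa, restrains H2-DM. Ciita is the transactivator that binds no DNA itself but is recruited to class II promoters by factors on the X and Y boxes. Macrophages express class II inducibly, through interferon-gamma and Ciita, and IL-4 is known to raise class II on mouse macrophages.

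The promoters of this family carry the elements through which Ciita acts, so the stretch with the Y box is shown for 6 members. Sequences are from RefSeq (GRCm38.p6), on the strand of the gene, 5′ to 3′, and lie before the listed start of transcription. The promoter table held 8 promoters of 7 members (2 of H2-DMa). H2-Ab1, Cd74 and Ciita were not matched in it. Capitals mark ATTGG (the Y box CCAAT on the other strand), AACNGATG, the X1-like core CCTNGNNAC and, in H2-Aa, TGACG on both strands. AACNGATG was added after the promoters had been read.
H2-DMb1 (chr17:34153080-34153144, +): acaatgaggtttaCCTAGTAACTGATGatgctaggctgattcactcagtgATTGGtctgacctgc
H2-DMb2 (chr17:34145109-34145173, +): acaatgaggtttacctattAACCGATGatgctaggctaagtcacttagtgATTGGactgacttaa
H2-Eb1 (chr17:34305758-34305822, +): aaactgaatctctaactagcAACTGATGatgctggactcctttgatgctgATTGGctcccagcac
H2-Eb2 (chr17:34325525-34325589, +): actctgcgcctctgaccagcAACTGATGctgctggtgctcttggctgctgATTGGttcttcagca
H2-Aa (chr17:34287857-34287921, -): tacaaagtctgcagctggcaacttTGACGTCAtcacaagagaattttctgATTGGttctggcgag
H2-Oa (chr17:34092286-34092350, +): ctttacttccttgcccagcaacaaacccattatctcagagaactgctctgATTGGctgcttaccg

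The 6 printed stretches were each cut around ATTGG, so that all 6 hold it is no result. In these 6, ATTGG lay 43 bases before the start in H2-Oa and 100 in H2-Eb2, with the others between. Over both strands CCAAT was found in 7 of the 8 member promoters and in 37.4% of all 32851 promoters in the table, over the same window. The 7 include a listed start of H2-DMa (34125518) whose stretch is not shown. There ATTGG lay 198 bases before the start, outside the range of the 6 stretches, and the 250 bases had a GC content of 37.2%. AACNGATG was found in H2-DMb1, H2-DMb2, H2-Eb1 and H2-Eb2 and in 2.32% of all promoters. It began 31 bases before ATTGG in both H2-DMb genes and 30 bases before it in both H2-Eb genes. TGACG, the core of the X2 element, was found in H2-Aa (20.8% of all promoters), 26 bases before ATTGG. CCTNGNNAC was found in H2-DMb1 (15.8% of all), where it overlaps AACNGATG. Neither GAGGAAGT, the core bound by the myeloid factor PU.1 (3.20% of all), nor TTCNNNNGAA, the STAT6 type of element (6.95% of all), was found in these windows. Of the 6 stretches shown, that of H2-DMb1 was the only stretch covered by a deposited peak, in WT untreated.

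H2-DMa is listed with a further start in a different kind of sequence. The 250 bases before it are shown because a WT untreated peak covers them and because Brd2, the gene of a BET bromodomain protein, starts within them in the opposite direction.
H2-DMa, first listed start (chr17:34122582-34122831, +): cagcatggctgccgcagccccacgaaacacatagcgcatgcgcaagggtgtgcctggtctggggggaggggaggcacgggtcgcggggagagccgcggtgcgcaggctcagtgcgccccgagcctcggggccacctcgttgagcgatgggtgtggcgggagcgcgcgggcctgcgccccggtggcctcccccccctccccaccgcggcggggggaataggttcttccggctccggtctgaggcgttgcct
It holds none of the motifs searched. Its GC content was 74.0% with 27 CpG dinucleotides, where the medians over all promoters were 52.4% and 6. The 250 bases before the start of H2-DMb1 had 46.4% and 3.

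Peaks at these loci were mostly of low score, and most of the regions had a peak in 1 library only. The authors' score of a peak was used to rank it within its list, as a percentile from 0 (lowest) to 100. A fixed cut at a score of 100 was also applied to all lists, and it does not stand for the same rank in each. Scores began at 50.0 in every list, and the 19 member peaks ran from 50.9 to 172.33. Of the 19, 15 lay below the median of their list and 3 had a score of 100 or more. WT untreated had 6 member peaks of 17339, WT IL-4 had 4 of 9930, KO untreated 4 of 13714 and KO IL-4 5 of 10443. The median percentile of the member peaks was 15.7, 23.0, 22.9 and 20.6 in that order. The number of reads behind each list is unknown, so a missing peak means only that none was called.

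**Figure D1:**
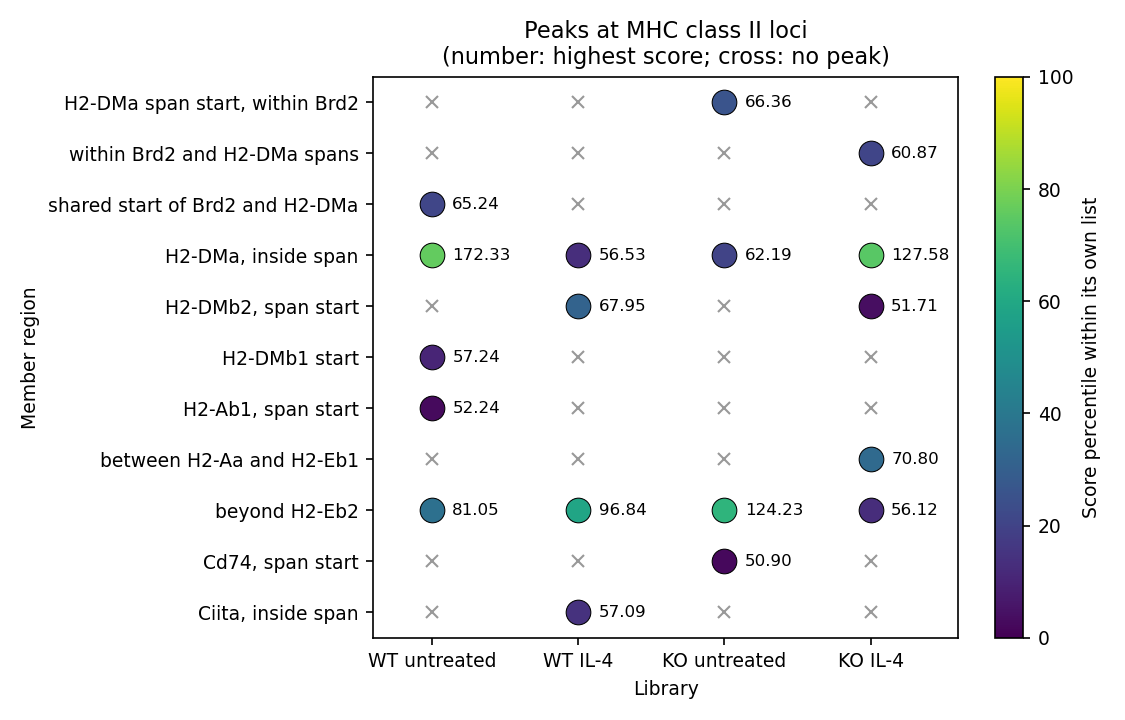
Peaks at the 11 regions of the MHC class II loci (rows) in the 4 libraries (columns). The colour gives the percentile of the highest peak within its own list, the number its score, and a cross that no peak was called: 2 regions had a peak in all 4 libraries and 8 in 1 library.

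Of the 11 regions, 8 had a peak in 1 library, 1 in both IL-4 libraries and 2 in all 4. Over all merged regions 32.8% had a peak in exactly 1 library and 32.5% in all 4. Only 0.618% had peaks in both IL-4 libraries and in no other. The 8 peaks found in 1 library had scores from 50.9 to 70.8. Each list was cut by score into 10 parts of nearly equal size, its score deciles. Of all peaks in the same decile and list, 7.65% (KO IL-4 peak between H2-Aa and H2-Eb1) to 58.0% (H2-Ab1 peak) were likewise in no other list. For the other peaks the shares were 12.8%, 16.5%, 22.2%, 37.3%, 41.8% and 52.9%. Whether these loci differ from the rest of the genome was not tested. This comparison by decile was added after the data were seen.

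By gene, the number of members with a locus peak was 5 of 10 (untreated) and 5 (IL-4) in WT, and 4 (untreated) and 6 (IL-4) in KO. The shares over all protein-coding loci were 56.0%, 43.3%, 51.6% and 44.1%, so these counts are near the background and set the members apart in no library. In these counts by gene, a peak shared by neighbouring loci enters for each gene. H2-DMa, H2-DMb2 and H2-Eb2 had a locus peak in all 4 libraries, as did 36.3% of all loci. For H2-DMa and H2-DMb2 this rests on the same region, inside the H2-DMa span and 7.39 kb outside that of H2-DMb2. For H2-Eb2 it rests on a region 6.12 kb outside the span. H2-Oa had none in any library, like 40.4% of all loci.

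The H2-DM genes encode the factor that loads peptide. A region inside the H2-DMa span (chr17:34135206-34135841) had a peak in every library, and the 4 peaks shared 310 bp. Its score was 172.33 (untreated) and 56.53 (IL-4) in WT, and 62.19 (untreated) and 127.58 (IL-4) in KO. The percentiles within those lists were 75.9, 13.2, 20.1 and 73.9. It thus ranked in the upper part of the WT untreated and KO IL-4 lists and in the lower part of the WT IL-4 and KO untreated lists. Lists of different lengths do not show a change in rank. This is also the only member region within a span that reached a score of 100, in the WT untreated and KO IL-4 libraries.

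At the start of the H2-DMb2 span (chr17:34142921-34143377), both IL-4 libraries had a peak and neither untreated library did. The WT IL-4 peak scored 67.95 (percentile 31.6) and the KO IL-4 peak 51.71 (percentile 3.8). The start that the promoter table lists for H2-DMb2, with the sequence shown above, lay 1.87 kb further on and had no peak. Of WT IL-4 peaks in the same score decile 10.4% had no WT untreated counterpart, and of KO IL-4 peaks in the decile of the second 45.6% had none in KO untreated. Of the 11 regions, no other followed the treatment in both genotypes. With every list cut to its 9930 peaks of highest score, the KO IL-4 peak was left out, since the lowest score then kept in that list was 52.20.

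The H2-DMb1 start had a peak in WT untreated alone (chr17:34152881-34153332, score 57.24, percentile 10.5). This interval covers the whole H2-DMb1 stretch with the X1-like core and the Y box. In its score decile 81.6% of WT untreated peaks had no WT IL-4 counterpart and 66.4% no KO untreated counterpart.

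Where H2-DMa overlaps Brd2, 3 libraries had a peak each, at 3 places that did not overlap. That of KO untreated lay at the low-coordinate end of the H2-DMa span (chr17:34119184-34119779, score 66.36), that of KO IL-4 inside both spans (chr17:34121026-34121544, 60.87), and that of WT untreated on the shared start (chr17:34122169-34122834, 65.24). The gaps between them were 1246 bp and 624 bp. WT IL-4 had no peak there. The first lay 121 bp from a listed Brd2 start and the second 203 bp from another. The third held a start of Brd2 and a start of H2-DMa. A peak here cannot be assigned to H2-DMa rather than Brd2.

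The classical I-A genes were nearly without peaks. H2-Ab1, the I-A beta chain gene, had 1 peak in WT untreated, on the start of its span (chr17:34263005-34263292, score 52.24, percentile 2.7), and none in the other libraries. H2-Aa, the alpha chain gene, had no peak in its span in any library. A KO IL-4 peak (chr17:34296093-34296375, score 70.8, percentile 34.2) lay between the genes, 8.27 kb from the start of H2-Aa and 9.49 kb from that of H2-Eb1, which point away from each other. It was the highest-scoring of the 8 peaks found in 1 library. Of the KO IL-4 peaks in its score decile 7.65% were in no other list, and 24.4% had no KO untreated counterpart. H2-Eb1 had no other locus peak.

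Beyond H2-Eb2, a beta chain gene related to H2-Eb1, all 4 libraries had a peak 6.12 kb outside the span (chr17:34347534-34348248). In WT the score was 81.05 untreated, with a second peak of 51.38, and 96.84 with IL-4; in KO it was 124.23 and 56.12. In the same order, the percentiles of the highest peaks were 36.6, 58.9, 65.1 and 12.7. The region lay 6.54 kb from Btnl2, a butyrophilin-like gene, so it is about as near to that gene as to H2-Eb2. The span of H2-Eb2 itself held no peak in any library.

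Outside chromosome 17, each gene had a peak in 1 library. At Cd74 (chr18:60803849-60812652), KO untreated had a peak on the start of the span, from 60803481 to 60803891, with a score of 50.9 (percentile 2.0). Of KO untreated peaks in that score decile 75.9% had no KO IL-4 counterpart. At Ciita (chr16:10480014-10531064), a gene with several promoters, WT IL-4 had a peak inside the span (chr16:10495938-10496456, score 57.09, percentile 14.3). Of WT IL-4 peaks in that decile 26.7% had no WT untreated counterpart and 54.4% no KO IL-4 counterpart.

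Across the whole cluster of 221.7 kb, which holds 13 protein-coding genes, a further region with peaks in every library lay at a class I gene pair. The shared start of Psmb9, an immunoproteasome subunit gene, and Tap1, which encodes a subunit of the peptide transporter of class I loading, had a peak in all 4 libraries (chr17:34187194-34187919). Its score was 189.35 (untreated) and 68.23 (IL-4) in WT, and 157.55 (untreated) and 109.79 (IL-4) in KO, at percentiles 79.6, 31.9, 76.2 and 65.6. The 4 peaks shared 438 bp. It was the only region of the cluster outside the member loci. With it, the cluster held 5 peaks (untreated) and 3 (IL-4) in WT, and 3 (untreated) and 5 (IL-4) in KO, covering 2588, 1262, 1718 and 2435 bp. From the Psmb9-Tap1 region to the H2-Ab1 start no library had a peak over 75.1 kb, which include Psmb8, Tap2 and H2-Ob.

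**Figure D2:**
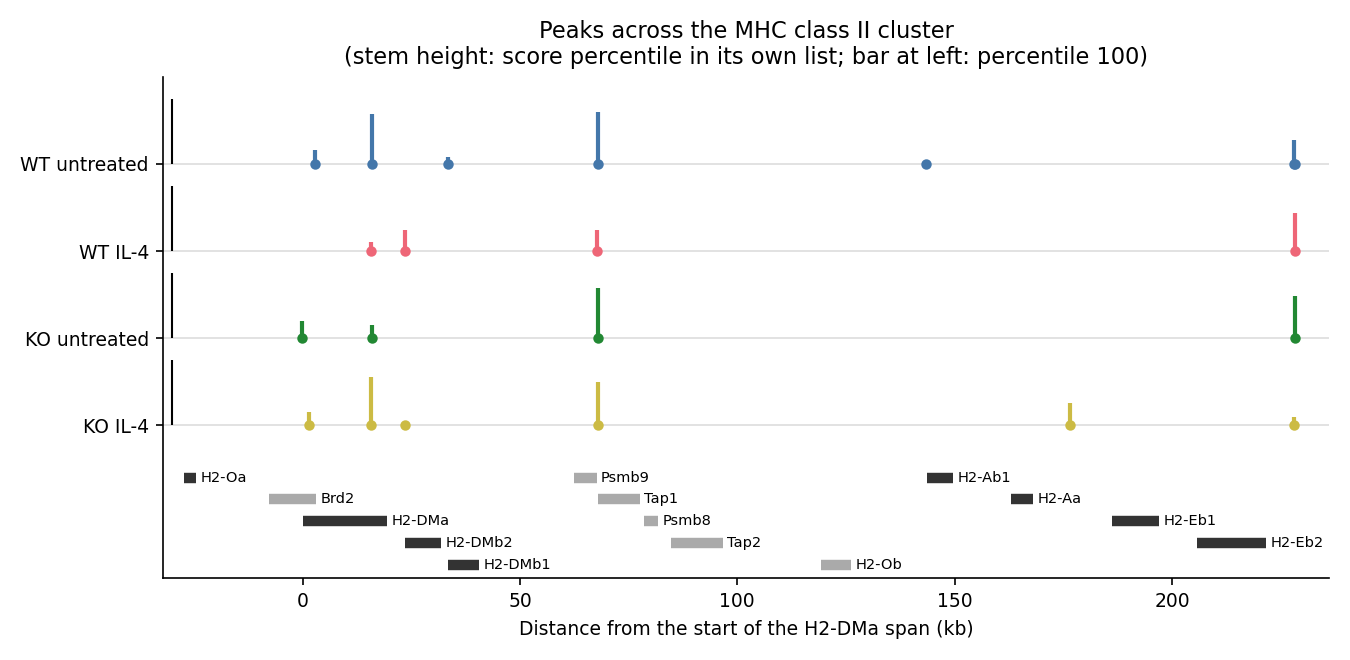
Peaks of the 4 libraries (rows) along the class II cluster, by distance in kb from the start of the H2-DMa span. Stem height is the percentile of the peak in its own list, with the bar at the left marking 100; black bars are member genes and grey bars other genes. Peaks stand in all 4 rows inside H2-DMa, at Psmb9 and Tap1, and beyond H2-Eb2.

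With IL-4 in WT, the peak at the H2-DMb2 span start and that inside Ciita appeared, and those at the H2-DMb1 start, the H2-Ab1 start and the shared start of Brd2 and H2-DMa were missing. By count, 2 of 4 WT IL-4 member peaks had no WT untreated counterpart, against 10.3% of all WT IL-4 peaks. In the reverse direction 3 of 6 WT untreated member peaks had no WT IL-4 counterpart, against 47.7% of all. The second count is near the background. The first rests on 2 peaks of scores 57.09 and 67.95, in whose score deciles 26.7% and 10.4% of WT IL-4 peaks had no WT untreated counterpart. With every list cut to its 9930 peaks of highest score, 3 of 4 WT IL-4 peaks lacked a counterpart and 0 WT untreated peaks did, since only 1 of the 6 WT untreated peaks had a score of 89.57 or more. Over all peaks of the lists so cut the shares were 26.0% and 25.8%.

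IL-4 in KO came with peaks at the H2-DMb2 span start, between H2-Aa and H2-Eb1, and inside Brd2, while the peaks at Cd74 and at the low-coordinate end of H2-DMa were missing. Of 5 KO IL-4 member peaks 3 had no KO untreated counterpart, against 18.1% of all KO IL-4 peaks. In the score deciles of these 3 peaks the shares were higher, at 45.6%, 24.4% and 33.8% in the order named. Of 4 KO untreated member peaks 2 had no KO IL-4 counterpart, against 37.7% of all and 75.9% and 66.6% in their score deciles. At equal list lengths the counts were 3 of 4 and 0 of 1, against 26.5% and 26.7% of all peaks. The 3 then included the region inside H2-DMa, whose KO untreated peak of 62.19 fell under the lowest score kept there, 67.78.

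Between untreated libraries, KO lacked the H2-DMb1, H2-Ab1 and shared Brd2 and H2-DMa start peaks of WT, and WT lacked the Cd74 peak and that at the low-coordinate end of H2-DMa. Of 4 KO untreated member peaks 2 had no WT untreated counterpart, against 15.4% of all. In the score deciles of the Cd74 peak and the H2-DMa peak the shares were 45.7% and 28.8%. Of 6 WT untreated member peaks 3 had no KO untreated counterpart, against 32.1% of all. In their score deciles, in the order named, the shares were 66.4%, 70.0% and 56.8%. At equal lengths the lists differed by the region inside H2-DMa, then in WT alone, and that beyond H2-Eb2, then in KO alone. Each list then held 1 member peak, and 22.1% of all KO and 21.8% of all WT peaks lacked a counterpart.

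After IL-4, KO had the peaks between H2-Aa and H2-Eb1 and inside Brd2 that WT lacked, and WT had the Ciita peak that KO lacked. Of 5 KO IL-4 member peaks 2 had no WT IL-4 counterpart, against 29.5% of all and 40.8% and 51.3% in their score deciles. Of 4 WT IL-4 member peaks 1 had no KO IL-4 counterpart, against 26.1% of all. At equal lengths 2 of 4 in KO and 2 of 4 in WT had none, against 27.5% and 27.7% of all peaks. The 4 comparisons share libraries in pairs, so their counts are not independent. In the full lists, the H2-DMb2 span start, the region inside H2-DMa and the region beyond H2-Eb2 had peaks in both IL-4 libraries. At equal lengths the KO IL-4 peak at the H2-DMb2 span start was left out.

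**Figure D3:**
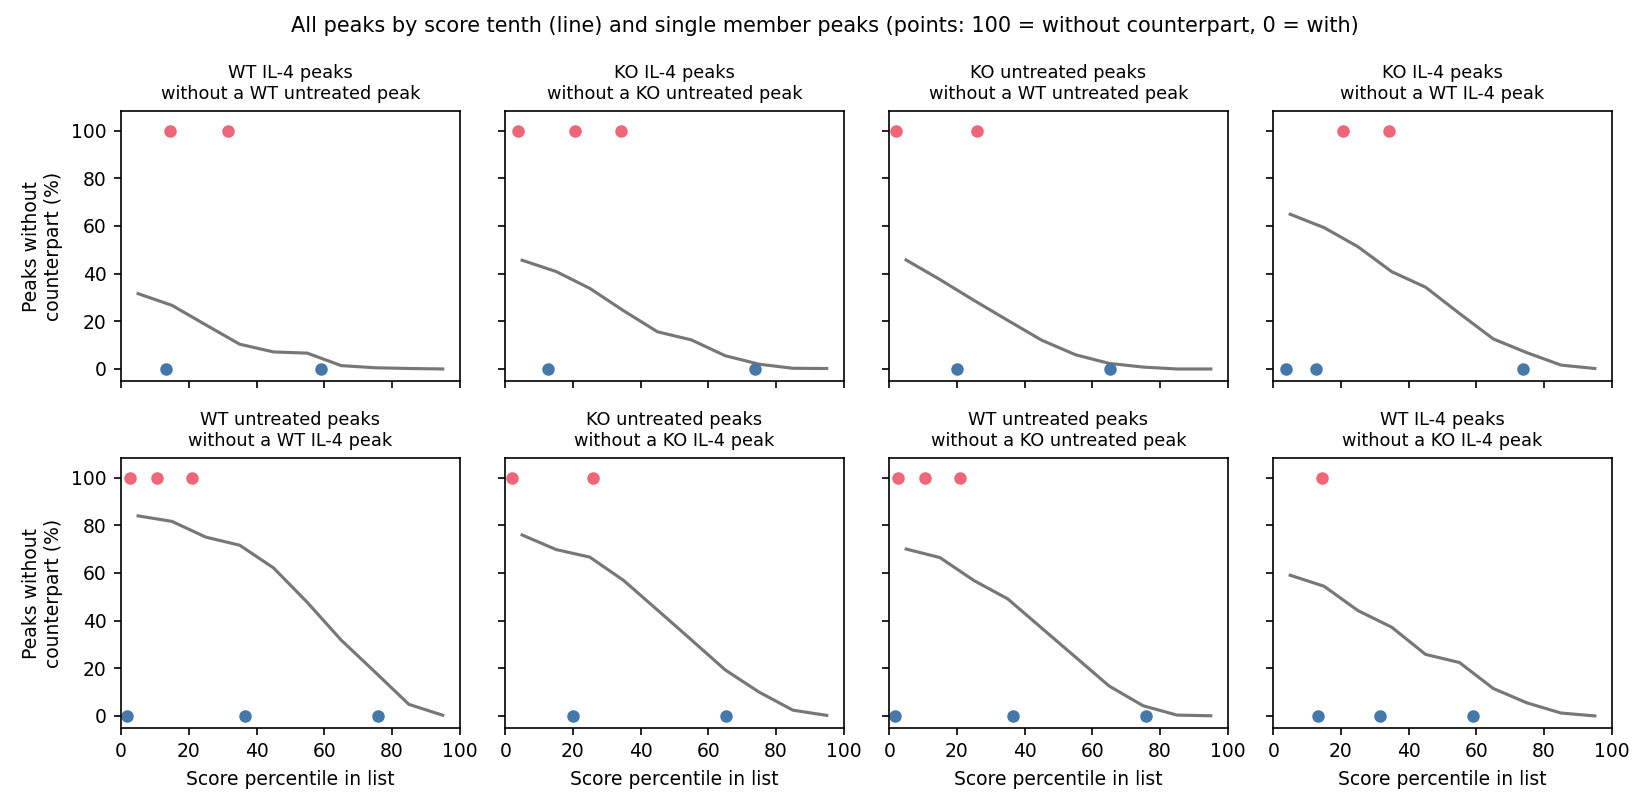
Percent of peaks without an overlapping peak in the compared library (y axis) by score percentile in the list (x axis), for the 8 directed comparisons. The line gives all peaks by score decile; points are the member peaks, drawn at 100 where the counterpart is missing and at 0 where it is present. All member peaks without a counterpart lie at percentile 34.2 or below.

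Genes that act with the members were taken from 3 lists. The list of class II transcription held peaks of higher rank than the members in every library. It has 14 genes, of which 10 had a locus peak in all 4 libraries and 3 in some, where the members gave 3 and 6 of 10. Of all loci 36.3% had a peak in all 4. The median percentile of each gene's highest locus peak, over genes with a peak, was 85.9 (untreated) and 65.4 (IL-4) in WT, and 82.7 (untreated) and 72.6 (IL-4) in KO. The member medians were 36.6, 31.6, 23.0 and 34.2, with a peak shared by neighbouring members entered for each. Without a counterpart at these 14 genes were 0 of 14 WT IL-4 and 5 of 20 WT untreated peaks, and 1 of 17 KO IL-4 and 2 of 17 KO untreated peaks. Over all peaks those shares were 10.3%, 47.7%, 18.1% and 37.7%. These are descriptions with no test.

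The factors on the X and Y boxes had a peak in every library. Rfx5, a subunit of the RFX complex on the X box, scored 221.04, 135.87, 177.48 and 126.72 in the order WT untreated, WT IL-4, KO untreated and KO IL-4. The other RFX subunits, Rfxap and Rfxank, lay between 127.58 and 280.42 over the 4 libraries. Nfya, the sequence-reading subunit of NF-Y on the Y box, scored 433.83, 226.2, 359.75 and 279.2, at percentile 94.1 or above in each list. The other NF-Y subunit genes, Nfyb and Nfyc, had peaks in all 4 as well.

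Myeloid and interferon-regulated factor genes differed more from library to library. Spi1, which encodes PU.1, had 2 locus peaks in WT untreated (scores 53.2 and 58.8), 1 in WT IL-4 (69.17), 1 in KO untreated (88.7, not overlapping these) and 0 in KO IL-4. Irf8 had a peak in WT untreated alone (73.77) and Irf4 in KO untreated alone (80.01). Irf1 and Stat6 had peaks in all 4.

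The other class II presentation genes numbered 12, of which 6 had a locus peak in all 4 libraries, 5 in some and 1 (H2-Ob, the partner of H2-Oa) in none. The shares over all loci were 36.3% in all 4 and 40.4% in none. Ctss, the protease that trims the invariant chain, had 1 peak in KO untreated (56.69) and an overlapping peak in KO IL-4 (72.4), and none in WT. Marchf1, a ubiquitin ligase that removes class II from the surface, had 4 peaks in WT untreated (58.61 to 70.98) and 2 in KO IL-4 (50.74 and 56.13), and none in the remaining libraries. Marchf8, a related ligase, and Cd83, which counters Marchf1, each had 1 peak in every library but WT IL-4. Cd40, a costimulatory receptor, had a peak in KO untreated alone (62.39).

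By list, WT untreated had 18 locus peaks at these 12 genes and WT IL-4 had 9, while KO untreated had 14 and KO IL-4 had 16. Without a counterpart were 10 of the 18 and 1 of the 9 in WT, and 2 of the 14 and 4 of the 16 in KO. The background shares for these directions are those given above, 47.7%, 10.3%, 37.7% and 18.1%. At equal list lengths WT had 9 and 9 peaks and KO 10 and 15.

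Class I and peptide loading genes numbered 11, with 7 in all 4 libraries, 2 in some and 2 (Tap2 and Psmb8) in none. Of all loci 36.3% had a peak in all 4 and 40.4% in none. In WT, 6 of 13 untreated and 2 of 9 IL-4 peaks at these genes had no counterpart in the other list. Over all peaks those shares were 47.7% and 10.3%. In KO, 3 of 11 untreated and 0 of 8 IL-4 peaks had none, against 37.7% and 18.1% of all. Nlrc5, the class I transactivator related to Ciita, had 4 peaks in WT untreated (58.0 to 83.15), 1 in KO untreated (55.8) and 0 with IL-4 in either genotype. The only Nlrc5 peak found in both untreated libraries lay beyond the end of the gene span. H2-K1, a classical class I gene, had a peak in WT untreated (99.19), KO untreated (64.28) and KO IL-4 (74.93) but not in WT IL-4.

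**Figure D4:**
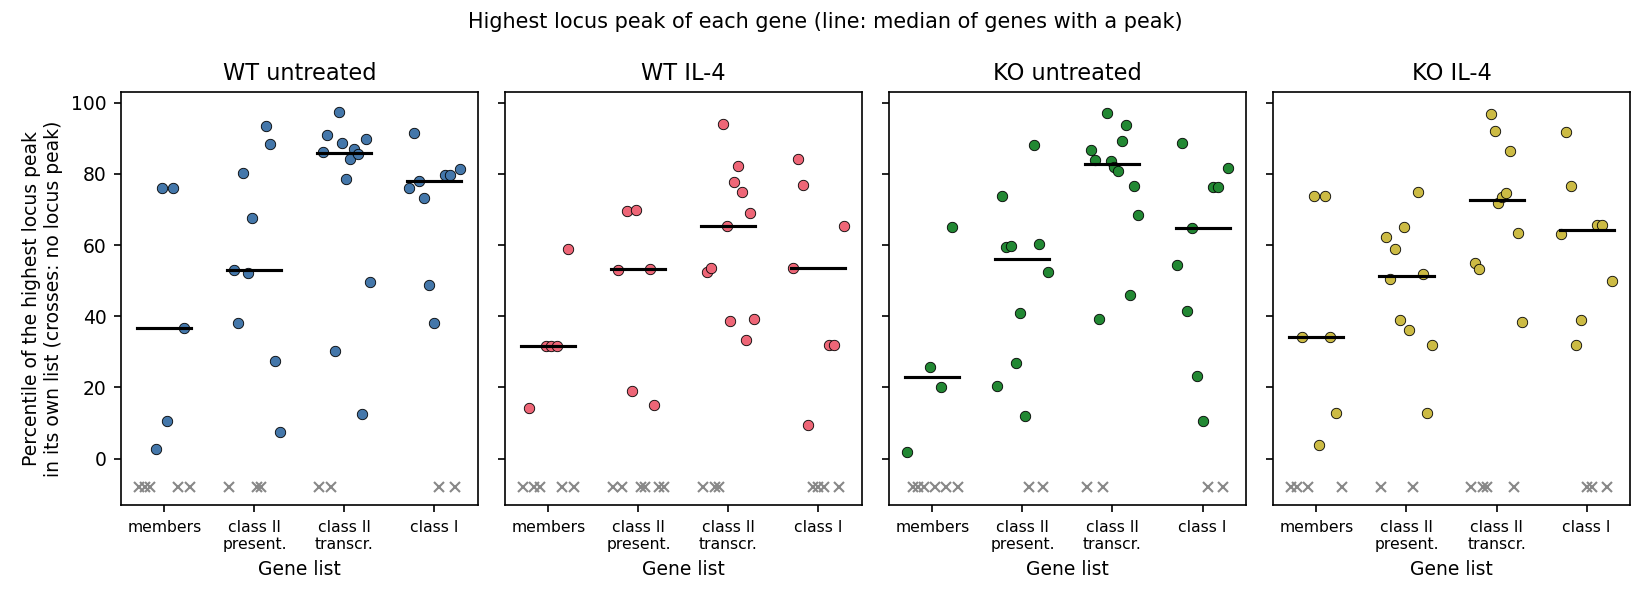
Percentile, within its own list, of the highest locus peak of each gene (points) for the members and 3 gene lists, by library; crosses are genes without a locus peak and lines are medians of genes with a peak. The line of the members lies below the other 3 in each library, at 36.6, 31.6, 23.0 and 34.2.

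As a check of the labels, no library had a peak at Slc6a8 or within 10 kb, so the targeted gene checks neither genotype. Of 10 macrophage markers 10, 9, 8 and 7 had a locus peak in WT untreated, WT IL-4, KO untreated and KO IL-4, where 56.0%, 43.3%, 51.6% and 44.1% of all loci did. The same shares are the background of the other marker counts, and those of T cell and dendritic cell markers lie near or above them. Class II genes are also open in B cells and dendritic cells. Of 7 B cell markers 3, 1, 1 and 1 had a locus peak, with Cd79a in all 4 libraries (scores 64.93 to 161.86), Ms4a1 (76.64) and Cd79b (52.14) in WT untreated alone, and Pax5, Ebf1 and Cd22 in none. Of 7 dendritic cell markers 5, 3, 4 and 5 had a peak, with Zbtb46 and Xcr1 in all 4 libraries and Ccr7 in none. Of 6 T cell markers 3, 3, 3 and 2 had a peak, with Lck (93.09 to 246.22) and Cd3g (63.35 to 138.56) in all 4 libraries and Cd3e, Cd4 and Cd8a in none. The part of such cells in the member peaks was not tested.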

How the data were processed

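The authors deposited 1 peak list per library, with no header. Per the submitters' processing notes the tools were Bowtie2 2.2.5, HOMER and MACS 1.4.2 on mm10; their roles and settings are not given. The deposited score of each peak has no stated unit and was used only within a list. The files give no read numbers, so how precisely a peak is called present is unknown.

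Gene spans came from a RefSeq table of GRCm38.p6 and starts from its promoter table (250 bases before to 50 after). Peaks overlapping by at least 1 bp counted as shared. No test was run, because each group has 1 library. Percentiles and score deciles were taken within a list. Motifs were searched on both strands. The naming rule takes every member, every gene of the cluster with a peak, and every listed gene with a locus peak in some libraries but not all; listed genes with a peak in all 4 libraries or in none were named in addition, after their values were seen. The members and lists were chosen with earlier results of these data known. Overlap counting was checked on the WT untreated list after peaks had been removed from it and artificial intervals added. Scripts ran on pandas 2.3.3, NumPy 2.4.6 and Matplotlib 3.10.9 (Python 3.11.15).

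Alternatives tried were loci extended by 2 kb or 50 kb, lists cut to 9930 peaks each by score (equal list lengths), scores of at least 100, and 50% reciprocal overlap. The decile shares, the shares over all peaks at equal list lengths and the motif AACNGATG were added after the data were seen. Some genes of the lists are not reported here.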

Additional observations from a re-analysis of the deposited data

Results flagged for a closer look

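The number of member peaks moved in opposite directions with IL-4 in the 2 genotypes, by -2 in WT (6 to 4) and by 1 in KO (4 to 5). Peaks of the class II cluster moved by -2 in WT (5 to 3) and 2 in KO (3 to 5). Those of the list of other class II presentation genes moved by -9 in WT (18 to 9) and 2 in KO (14 to 16). The whole WT list went from 17339 to 9930 peaks, which is 57.3% of its untreated number, and the whole KO list from 13714 to 10443, which is 76.1%. The difference between genotypes was not tested, since each group has 1 library. At equal list lengths the member peaks went from 1 to 4 in both genotypes, cluster peaks from 2 to 3 in WT and from 1 to 4 in KO, and peaks of the presentation list from 9 to 9 in WT and from 10 to 15 in KO, so the opposite directions were no longer seen.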

How the results depend on the processing

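Counts this small moved with most choices. With a score of 100 or more, member peaks numbered 1 (untreated) and 0 (IL-4) in WT, and 1 (untreated) and 1 (IL-4) in KO, and cluster peaks 2, 0, 1 and 2. Member peaks without a counterpart were then 0 (WT IL-4) and 1 (WT untreated) for IL-4 in WT, 1 (KO IL-4) and 1 (KO untreated) for IL-4 in KO, 1 (KO) and 1 (WT) between untreated libraries, and 1 (KO) and 0 (WT) after IL-4. At equal list lengths member peaks numbered 1 in WT untreated and 1 in KO untreated, and cluster peaks 2 and 1; without a counterpart were 3 (WT IL-4) and 0 (WT untreated), 0 of KO untreated against KO IL-4, 1 (KO) and 1 (WT) between untreated libraries, and 2 of WT IL-4 against KO IL-4. With loci extended by 50 kb, member peaks numbered 14, 9, 9 and 11; without a counterpart were 7 of WT untreated against WT IL-4, 6 (KO IL-4) and 4 (KO untreated) for IL-4 in KO, and 7 of WT untreated against KO untreated. With 2 kb, KO IL-4 had 3 member peaks, 1 of them without a WT IL-4 counterpart. With reciprocal overlap of 50%, 2 WT IL-4 peaks lacked a KO IL-4 counterpart. The other 28 values for the members and the cluster stayed within 1.5 times the reported count.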
